A study of Mus musculus with 6 samples.

Results

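The genes described here encode 6 host proteins that airway viruses use to bind or enter epithelial cells, the receptors *Cdhr3* and *Icam1* and the proteases *Tmprss2*, *Furin*, *Ctsl* and *Ctsb*. They were chosen by symbol, and all 6 were found among the 20483 genes of the count table. The level of each was followed over the 16 cell types that the authors named, over the 6 mice, and between the 2 genotypes. The cells came from tracheae of C57BL/6 mice 12 weeks old, which were either wild type littermates (*WT/WT*, 3 mice, labelled WT) or homozygous for a missense allele of *Dnaaf5* made with CRISPR-Cas9 (*MIS/MIS*, 3 mice, labelled DNAAF5 Mutant). *Dnaaf5* encodes a cytoplasmic factor that helps to assemble the dynein motors of motile cilia. Basal cells were expanded and then differentiated at an air-liquid interface, and whole epithelial cultures were profiled by droplet scRNA-Seq, so each library holds cultured epithelium of 1 mouse rather than airway tissue. The labels name no virus or other agent.

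To infect a cell, a virus first binds a receptor at the surface and then fuses with a membrane of the cell, and many airway viruses carry a fusion protein that must be cut by a protease of the host before it can work. CDHR3, a cadherin-family protein, is the human receptor of rhinovirus C, and ICAM1, an adhesion molecule that leukocytes bind, is the human receptor of most other rhinoviruses, whereas mouse Icam1 does not bind those viruses. TMPRSS2 is a serine protease of the cell surface that cuts influenza hemagglutinin and coronavirus spike, and furin, a proprotein convertase of the Golgi, cuts viral proteins with a polybasic site during export. Cathepsins L and B are cysteine proteases of endosomes and lysosomes that cut the fusion proteins of viruses taken up by endocytosis. In the airway, basal cells are the progenitors, secretory cells release mucosal proteins, and multiciliated cells carry the motile cilia.

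The deposited table held 23871 cells, 10457 from *WT/WT* and 13414 from *MIS/MIS* mice, with 2673 to 6710 cells per mouse, median depths of 21328 to 35383 unique molecular identifiers (UMIs) per cell and at least 5061 UMIs in every cell. The cells fell into 8 basal types (11126 cells), 2 secretory types (7731 cells), 4 multiciliated types (4823 cells), neuroendocrine cells (163) and ionocytes (28). Defining markers fitted these names, with *Foxi1* and *Ascl3* at 669 and 807 CPM (UMIs of a gene scaled to a common library total) in ionocytes and *Chga* at 2241 CPM in neuroendocrine cells. The leukocyte gene *Ptprc* had UMIs in 5 of the 16 types and reached at most 0.427 CPM, in Multiciliated2. *Csf1r* reached at most 1.90 CPM, in Multiciliated1. *Lyz2*, which is also a leukocyte marker, reached 6613 CPM in ionocytes and 2563 CPM in Multiciliated1. *WT/WT* mouse 1 stood apart among basal cells, with 1048 of its 1834 basal cells in the type Basal4, which held 1 to 167 cells in each of the other 5 mice. Of 23804 distinct cell barcodes, 67 occurred in more than 1 library. A level is the CPM of the summed UMIs of a type in a mouse with at least 20 cells of it, and values are given as mean ± SD over such mice. The cell types were clustered by the authors from these same counts, so levels across types are a description.

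The promoters of 4 of the genes are shown because they hold letters of at least 1 of the motifs searched. Windows from 250 bases before to 50 bases after the start of transcription were taken from RefSeq on GRCm38.p6 and are written 5′ to 3′ on the strand of the gene, with matches in capitals. Of the 6 genes, 5 had a window. The letters searched, on both strands, were GTTGCC for the RFX factors of ciliated cells, TGTTTAC for forkhead factors such as Foxj1, GGAAATTCC for NF-kB and CACGTG for E-box factors.
*Cdhr3*, chr12:33092826-33093125, minus strand: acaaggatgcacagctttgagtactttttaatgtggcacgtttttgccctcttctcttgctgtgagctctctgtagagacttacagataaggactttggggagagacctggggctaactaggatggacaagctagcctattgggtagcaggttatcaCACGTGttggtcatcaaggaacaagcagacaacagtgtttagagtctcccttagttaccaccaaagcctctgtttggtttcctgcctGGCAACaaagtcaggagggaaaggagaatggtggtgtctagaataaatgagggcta
*Icam1*, chr9:21015690-21015989, plus strand: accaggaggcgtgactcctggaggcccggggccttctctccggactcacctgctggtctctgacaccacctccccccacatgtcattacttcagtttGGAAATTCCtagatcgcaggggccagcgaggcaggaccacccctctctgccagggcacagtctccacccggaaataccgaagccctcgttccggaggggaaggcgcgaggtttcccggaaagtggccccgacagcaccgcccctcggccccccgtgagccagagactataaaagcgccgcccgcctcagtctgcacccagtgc
*Ctsl*, chr13:64370471-64370770, minus strand: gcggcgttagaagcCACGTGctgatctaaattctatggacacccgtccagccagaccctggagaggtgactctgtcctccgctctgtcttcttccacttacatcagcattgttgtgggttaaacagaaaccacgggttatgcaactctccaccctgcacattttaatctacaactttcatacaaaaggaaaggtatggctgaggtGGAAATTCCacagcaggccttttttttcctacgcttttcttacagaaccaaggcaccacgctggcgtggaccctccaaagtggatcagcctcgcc
*Furin*, chr7:80402763-80403062, minus strand: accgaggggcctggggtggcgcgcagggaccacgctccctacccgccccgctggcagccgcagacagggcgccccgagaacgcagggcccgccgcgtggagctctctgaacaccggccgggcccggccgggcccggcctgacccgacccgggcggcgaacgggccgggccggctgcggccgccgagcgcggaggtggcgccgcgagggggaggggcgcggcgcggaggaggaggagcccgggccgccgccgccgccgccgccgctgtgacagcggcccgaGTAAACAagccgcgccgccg
The *Cdhr3* window held the RFX letters as their reverse complement, GGCAAC, at positions -6 to -1 from the start site, and CACGTG at -93 to -88. GGAAATTCC lay at -153 to -145 in *Icam1* and at -45 to -37 in *Ctsl*, which also held CACGTG at -236 to -231. The *Ctsl* window lies inside the span of the gene given below, chr13:64359337-64370890, so bases before the 5′ end of that span were not searched. Among all 32851 RefSeq windows of 300 bases, 12.5% held the RFX letters, 3.65% the forkhead letters, 0.317% the NF-kB letters and 7.15% the E-box letters. None of these letters were in the *Tmprss2* window. *Furin* has a pair of start sites, and its more downstream window, shown here, held the forkhead letters as GTAAACA at 31 to 37 bases past the start while the other held none. A match is a description of the sequence only.

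*Cdhr3* (chr12:33033796-33092875 on GRCm38, minus strand) was a gene of multiciliated cells and, among them, mostly of the type Multiciliated3. In Multiciliated3 its level was 253, 202 and 205 CPM in the *WT/WT* mice and 215, 256 and 257 CPM in the *MIS/MIS* mice, or 231 ± 26.4 CPM (n = 6). The genotypes overlapped there. Multiciliated1 followed at 42.4 ± 8.17 CPM (n = 6), Multiciliated4 at 25.6 ± 13.9 CPM (n = 5, 45 UMIs in all) and Multiciliated2 at 8.27 ± 3.95 CPM (n = 6). Every other type lay below 1 CPM, the highest being Basal6 at 0.925 CPM, where 1 *MIS/MIS* mouse, MT1383, had 4.77 CPM. The level of *Cdhr3* did not follow that of *Foxj1*, the forkhead gene that drives multiciliogenesis, since *Foxj1* was highest in Multiciliated2 at 716 CPM, against 344 CPM in Multiciliated3 and 72.5 CPM in Multiciliated1.

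Cells of Multiciliated3 made up 11.4% of all cells and 9.92% of all UMIs but held 88.2% of the *Cdhr3* UMIs, and the 4 multiciliated types together held 98.9%. A *Cdhr3* count was found in 96.2% of Multiciliated3 cells (exact binomial 95% interval 95.4% to 96.9%, which like the others covers counting error only) and still in 67.2% once each cell was thinned to 5000 UMIs. Basal cells had shares of 0.917% and 0.288%, and secretory cells of 1.05% and 0.129%. Neuroendocrine cells and ionocytes had none, 0 of 163 cells, which allows up to 1.84% of cells with a UMI (3 counts of the total), and 0 of 28 cells, which allows up to 10.7%. To read the few counts outside multiciliated cells, *Cdhr3* was set against *Foxj1*, *Rsph1*, *Tppp3* and *Dnah5*, which mark multiciliated cells. Per 100 UMIs of those 4 genes there were 4.60 *Cdhr3* UMIs in multiciliated cells, but 2.11 in basal and 1.53 in secretory cells. The level of *Cdhr3* in secretory and basal cells was 0.239% and 0.302% of that in multiciliated cells, below the 0.719% and 0.658% of the marker genes. Some of the counts in basal cells lay in few cells, since 20 of the 132 UMIs came from 4 Basal6 cells of MT1383 and 12 from 4 Basal1 cells of *WT/WT* mouse 3. The source of the counts outside multiciliated cells was not tested.

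The pattern of *Cdhr3* over the 16 types was closest to that of *Cdh26*, another cadherin gene, then *Cdhr4*, *P2rx6*, *Hydin*, which encodes a protein of the central apparatus of cilia, and *Gm281* (Pearson r of log2(CPM + 1) from 0.979 to 0.993 over 16 types, which share libraries and depth). These are the most alike of 11740 genes that reached 10 CPM in some type. All 5 were highest in Multiciliated3. The RFX letters were in 2 of their 5 windows, those of *Cdhr4* and *Hydin*, and also in 2 of 4 windows of the genes most like *Ctsb*, 1 of 5 for *Tmprss2*, 1 of 4 for *Furin* and 0 of 4 for *Icam1* and for *Ctsl*. The log2 ratio of the top to the median type was 7.41 for *Cdhr3*, larger than in 99.2% of those genes, whose median was 1.15. *Icam1* had 1.74, *Tmprss2* 2.21, *Furin* 1.69, *Ctsl* 1.18 and *Ctsb* 0.71.

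**Figure D1:**
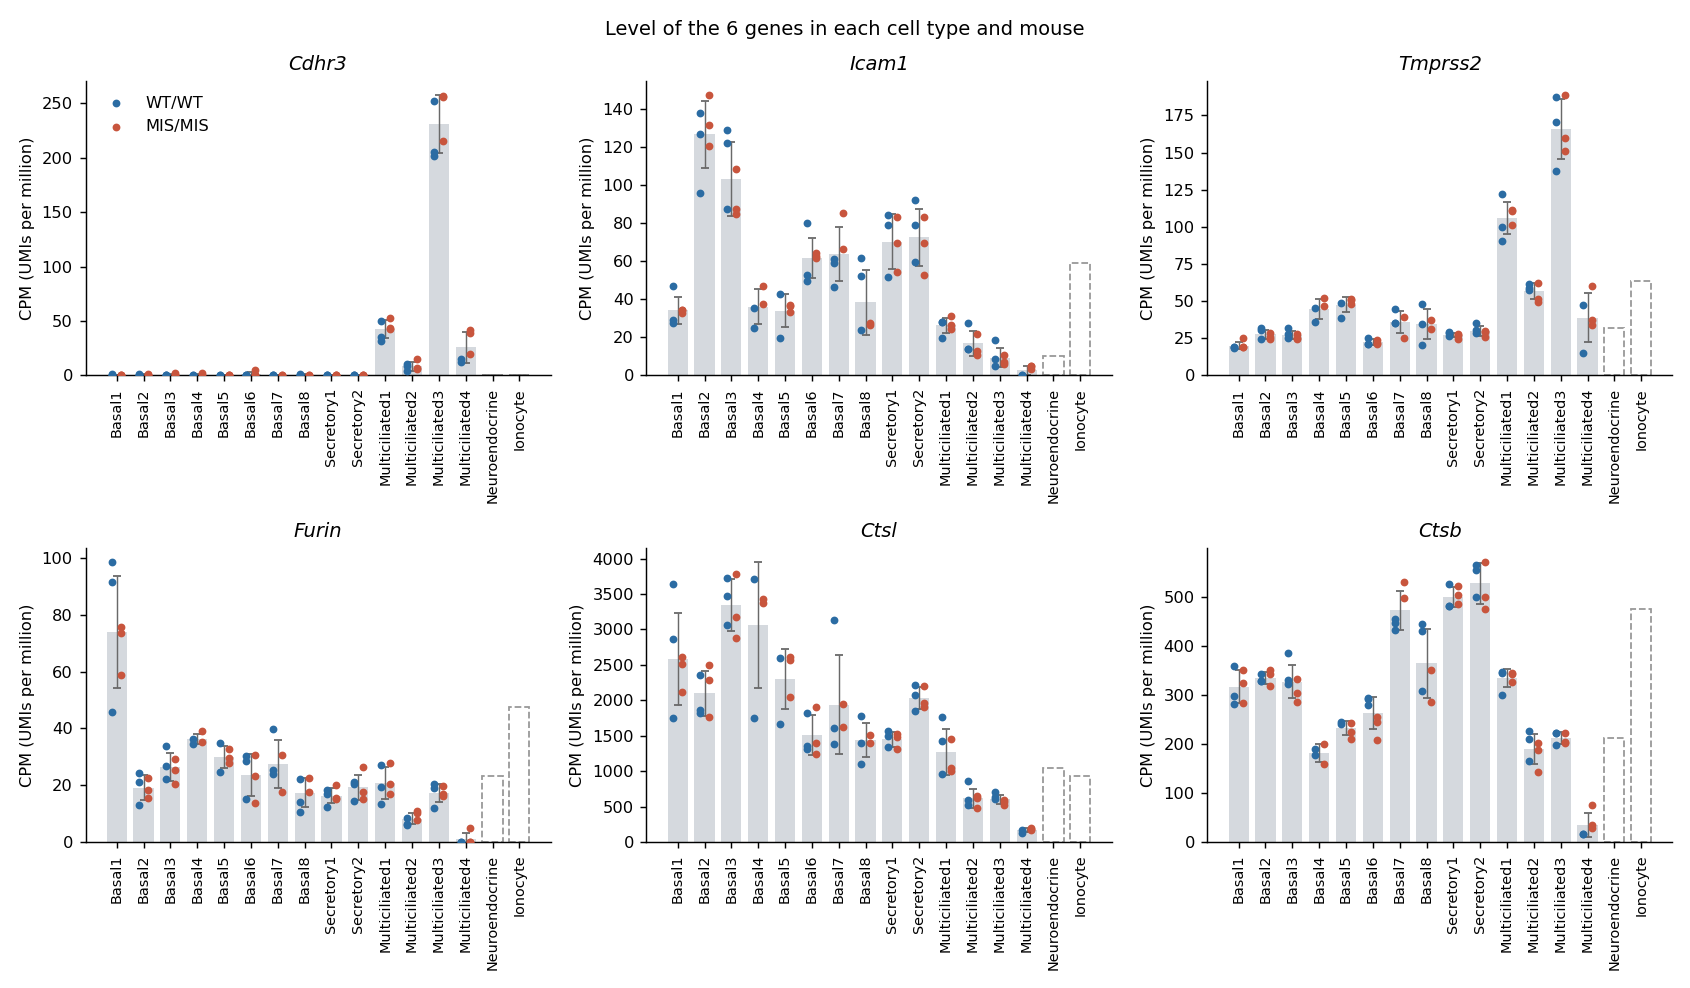
Level of each of the 6 genes in CPM (vertical axes, separate linear scales from 0) in the cell types (horizontal axes); grey bars are means over mice with at least 20 cells, error bars are SD, points are single mice coloured by genotype, and dashed bars are ionocytes and neuroendocrine cells pooled over mice. *Cdhr3* stands at 231 CPM in Multiciliated3 and below 1 CPM outside the multiciliated types, whereas *Ctsb* runs from 33.7 CPM in Multiciliated4 to 527 CPM in Secretory2.

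*Icam1* (chr9:21015985-21028817, plus strand) was a gene of basal and secretory cells. It was highest in Basal2, at 95.9, 127 and 138 CPM in the *WT/WT* mice and 147, 121 and 131 CPM in the *MIS/MIS* mice (127 ± 17.7, n = 6), and in Basal3 at 103 ± 19.4 CPM (n = 6). Secretory2 and Secretory1 followed at 72.6 ± 14.9 and 70.2 ± 14.5 CPM (n = 6 each). The basal types themselves spread widely, down to 34.1 ± 6.93 CPM in Basal1 (n = 6) and 33.8 ± 8.66 CPM in Basal5 (n = 5). The multiciliated types were lower, from 26.2 ± 4.02 CPM in Multiciliated1 to 16.7 ± 6.54 in Multiciliated2 and 9.23 ± 5.03 in Multiciliated3 (n = 6 each) and 2.58 ± 2.44 in Multiciliated4 (n = 5, 4 UMIs in all). The 28 ionocytes, pooled, had 59.1 CPM (41 UMIs). In all basal cells *WT/WT* mouse 1 was lowest at 36.0 CPM, against 59.2 to 82.6 CPM in the other 5 mice, and in that mouse Basal4, where *Icam1* was 24.7 CPM, made up 57.1% of basal cells. A count was found in 80.2% of Basal2 cells (78.5% to 81.8%), or 42.9% at 5000 UMIs per cell, and in 24.9% of multiciliated cells, or 5.76%. Basal cells held 50.9% of its UMIs, secretory 43.5% and multiciliated cells 5.42%. Among the 5 genes most like it were *Pprc1*, *Apobec3*, *Pdpn* and *Ier3* (r from 0.928 to 0.931). Of the 5 genes, 4 had a window, and the NF-kB letters were in 1 of these, that of *Ier3*, while the window of *Pdpn* held the forkhead and E-box letters. None of the 4 windows of the genes most like *Ctsl* held the NF-kB letters.

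*Tmprss2* (chr16:97564682-97611195, minus strand) was present in every cell type and highest in multiciliated cells. Multiciliated3 had 138, 187 and 171 CPM in the *WT/WT* mice and 189, 160 and 151 CPM in the *MIS/MIS* mice (166 ± 20.4, n = 6). Multiciliated1 had 106 ± 10.9 CPM and Multiciliated2 56.6 ± 5.45 CPM (n = 6 each), and the 3 types came in this order in 6 of 6 mice. Below them lay Basal5 at 47.5 ± 5.04 CPM (n = 5), Basal4 at 45.0 ± 6.75 (n = 4) and Multiciliated4 at 38.8 ± 16.6 (n = 5). The remaining basal and secretory types held at most 35.7 CPM. Basal1 was the lowest, at 19.0, 18.7 and 18.9 CPM in the *WT/WT* mice and 19.1, 19.3 and 25.3 CPM in the *MIS/MIS* mice, with MT1383 highest. The 28 ionocytes had 63.4 CPM when pooled, from 44 UMIs. Basal cells of *WT/WT* mouse 1 had 41.5 CPM, against 22.8 to 33.2 CPM in the other mice, and Basal4 of that mouse had 45.5 CPM. Multiciliated cells held 50.9% of the *Tmprss2* UMIs, basal cells 28.0% and secretory cells 20.7%. A count was found in 92.6% (91.6% to 93.6%) of Multiciliated3 cells, 51.1% of basal cells and 56.7% of secretory cells, and in 51.8%, 14.6% and 12.8% at 5000 UMIs per cell.

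The receptor *Cdhr3* and the protease *Tmprss2* were thus both highest in Multiciliated3, and their levels over the 16 types had a Pearson r of 0.77, a description over types that share libraries. Of Multiciliated3 cells, 91.3% ± 2.76 (n = 6 mice, 86.4% to 94.5%) had counts of both, where the product of the separate shares was 90.2%. At 5000 UMIs per cell both were found in 37.0% ± 1.14, against a product of 34.3%, and the joint share was above the product in 5 of 6 mice. In Multiciliated1 the joint share at that depth was 7.81% ± 3.01. *Tmprss2* on its own was most like *D5Ertd579e*, *Sec22c*, *Cds1*, *C2cd2* and *Mfn1* (r from 0.867 to 0.894).

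*Furin* (chr7:80388585-80405436, minus strand) was highest in Basal1, at 91.5, 45.9 and 98.7 CPM in the *WT/WT* mice and 58.8, 75.9 and 73.8 CPM in the *MIS/MIS* mice (74.1 ± 19.7, n = 6). The *WT/WT* values enclosed the *MIS/MIS* values, with *WT/WT* mouse 2 lowest. Basal4 had 36.3 ± 1.93 CPM (n = 4) and Basal5 29.9 ± 3.97 (n = 5), while the secretory types had 19.2 ± 4.40 and 16.4 ± 2.76 CPM and Multiciliated2 8.22 ± 2.00 CPM (n = 6 each). In Multiciliated4, the shallowest of the 4 multiciliated types, 4 *Furin* UMIs were found in 146 cells. Basal1 held 28.3% of all *Furin* UMIs with 9.94% of all UMIs, and basal cells together held 63.4%. A count was found in 75.3% of Basal1 cells (73.5% to 77.0%) and in 28.9% at 5000 UMIs. Among the 5 genes with the closest pattern were *Ankrd50*, *Itgb1*, *Med15* and *Ndfip2* (r from 0.932 to 0.957). *Itgb1* encodes an integrin subunit by which basal cells hold to the basement membrane, and it was highest in Basal1, like *Furin*.

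*Ctsl* (chr13:64359337-64370890, minus strand) was detected in 99.7% of all cells. In Basal3 it reached 3720, 3066 and 3477 CPM in the *WT/WT* mice and 3177, 3779 and 2873 CPM in the *MIS/MIS* mice (3349 ± 368, n = 6). Basal4 had 3067 ± 889 CPM (n = 4) and Basal1 2585 ± 652 (n = 6), the latter ranging from 1747 CPM in *WT/WT* mouse 2 to 3644 in *WT/WT* mouse 1. Secretory2 lay above Secretory1, at 2034 ± 156 against 1452 ± 106 CPM (n = 6 each). Multiciliated1 had 1274 ± 323 CPM, Multiciliated2 620 ± 134 and Multiciliated3 604 ± 64.6 (n = 6 each). *Ahnak2*, *Xdh*, *Sertad2*, *Efnb1* and *Hyal2*, a hyaluronidase gene, were most like *Ctsl* (r from 0.941 to 0.960).

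*Ctsb* (chr14:63122462-63145923, plus strand) had the flattest pattern of the 6 genes and was a gene foremost of secretory cells. Secretory2 had 565, 499 and 555 CPM in the *WT/WT* mice and 500, 571 and 474 CPM in the *MIS/MIS* mice (527 ± 41.4, n = 6), and Secretory1 had 499 ± 20.3 CPM (n = 6). Basal7 came next at 472 ± 40.3 CPM (n = 5). The other basal types lay between 182 CPM in Basal4 and 364 CPM in Basal8, and Multiciliated1, 3 and 2 had 334, 212 and 189 CPM. Ionocytes, pooled, had 476 CPM. A count was found in 98.4% of all cells, and 50.3% of the UMIs lay in secretory cells. *Fam53c*, *Man2b1*, *Chpf2*, *Clcn7* and *Cx3cl1* were most like it (r from 0.950 to 0.974). *Man2b1* and *Clcn7* encode a mannosidase and a chloride-proton exchanger of lysosomes.

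Summed by class, basal cells had the most *Ctsl* relative to *Ctsb*. They had 8.42 ± 2.71 *Ctsl* UMIs per *Ctsb* UMI, whereas secretory cells had 3.24 ± 0.221 and multiciliated cells 3.28 ± 0.565 (n = 6 each). Basal cells ranged from 6.44 to 13.7 over the mice, and the other classes from 2.77 to 4.24, so basal cells did not overlap with the others. Secretory cells (2.83 to 3.45) lay within the range of multiciliated cells. The highest basal value was that of *WT/WT* mouse 1, in which Basal4 made up 57.1% of basal cells. Basal4 had 17.0 ± 5.09 (n = 4) and Basal3 10.3 ± 1.31 (n = 6), whereas Secretory1 had 2.91 ± 0.150 and Multiciliated3 2.85 ± 0.259 (n = 6 each). Single types did overlap across classes. Basal7 had 4.18 ± 1.76 and Basal8 4.02 ± 0.779 (n = 5 each), close to Secretory2 at 3.86 ± 0.155 and Multiciliated1 at 3.86 ± 1.17 (n = 6 each). Multiciliated4 at 6.61 ± 3.08 (n = 5) and Basal2 at 6.25 ± 0.732 (n = 6) were also close. The Multiciliated4 value rests on 4 to 17 *Ctsb* UMIs per mouse and ran from 2.38 to 10.8. A ratio of UMIs compares cell types within this assay and is no ratio of protein or of transcripts per length.

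**Figure D2:**
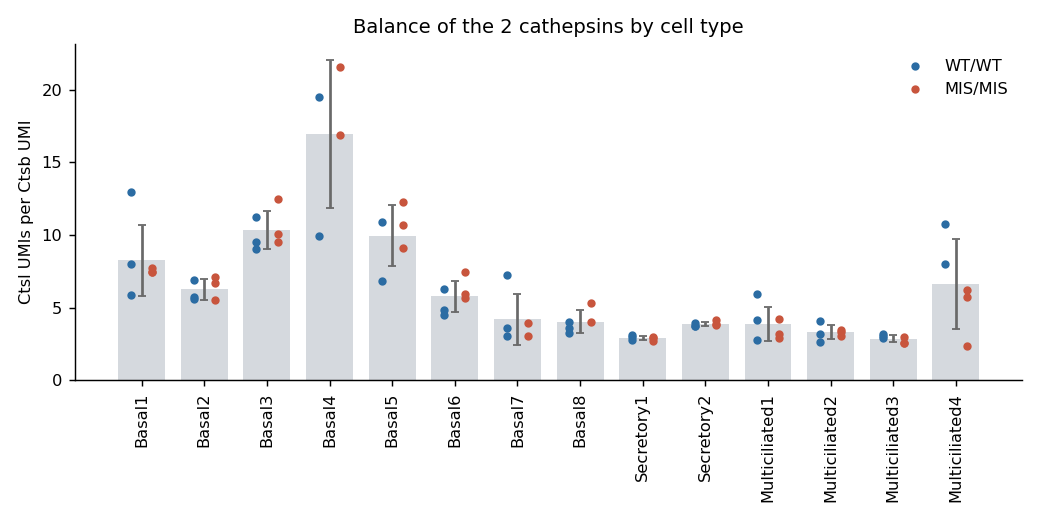
*Ctsl* UMIs per *Ctsb* UMI (vertical axis, linear from 0) by cell type (horizontal axis); grey bars are means over mice with at least 20 cells, error bars are SD and points are mice coloured by genotype. Basal4 is highest at 17.0 and Multiciliated3 and Secretory1 are lowest at 2.85 and 2.91.

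**Figure D3:**
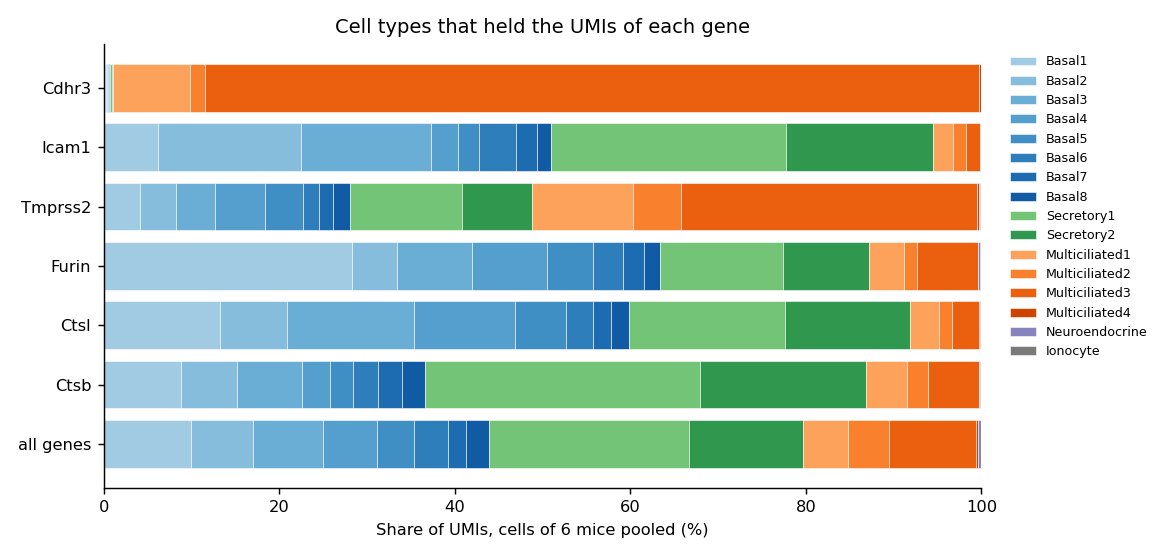
Share of the UMIs of each gene, in percent with cells of 6 mice pooled (horizontal axis), that each cell type held; each horizontal bar is a gene, the last bar is all genes, and colours are cell types. Multiciliated3 holds 88.2% of the *Cdhr3* UMIs and 33.8% of those of *Tmprss2* against 9.92% of all UMIs, and Basal1 holds 28.3% of those of *Furin*.

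In the order of cell types for each gene, neighbours were compared within mice by a two-sided exact sign-flip permutation test of log2(CPM + 1). Of the 84 pairs, those with neuroendocrine cells had too few mice for a p-value. None of the others passed after adjustment over them. None could have passed, since the smallest p that 6 mice allow is 0.03125 and too few pairs had 6 mice. The adjusted p for that value was 0.240. The test therefore cannot tell which neighbours differ, and the steps that follow are a description. The pairs that went the same way in 6 of 6 mice numbered 2 for *Cdhr3*, 2 for *Icam1*, 3 for *Tmprss2*, 1 for *Furin* and 0 for *Ctsl* and *Ctsb*. They included the step from Multiciliated3 to Multiciliated1 in *Cdhr3* (2.43 ± 0.33 on the log2 scale, SD) and in *Tmprss2* (0.64 ± 0.12), from Multiciliated1 to Multiciliated2 in *Tmprss2* (0.89 ± 0.20) and from Basal3 to Secretory2 in *Icam1* (0.51 ± 0.22). The neighbours Secretory2 and Secretory1, at the head of *Ctsb*, differed by 0.08 ± 0.11, with Secretory2 higher in 4 of 6 mice.

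Between the 3 classes, UMIs were summed per mouse and class and fitted with limma voom with the mouse as a block, and p-values were adjusted by the Benjamini-Hochberg method over 15942 genes. Multiciliated cells were set against basal cells, where 6 of the 6 genes were called, 2 higher and 4 lower. Of all genes tested, 80.6% were called, 40.1% higher and 40.5% lower, so a call in this comparison is common. *Cdhr3* was higher by 8.23 on the log2 scale (SE 0.38) and *Tmprss2* by 1.79 (SE 0.12). *Icam1* had a log2 fold change of -2.35 (SE 0.20), *Ctsl* of -1.94 (SE 0.07), *Furin* of -1.44 (SE 0.09) and *Ctsb* of -0.61 (SE 0.05). The median of the 6 genes was -1.02, against -0.01 over all genes.

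Against secretory cells, multiciliated cells again differed in 6 of 6 genes, 2 higher and 4 lower, with 79.3% of all genes called, 41.4% higher and 37.9% lower. The log2 fold change was 8.28 (SE 0.50) for *Cdhr3*, 1.79 (SE 0.12) for *Tmprss2*, -2.56 (SE 0.18) for *Icam1*, -1.46 (SE 0.05) for *Ctsb*, -1.45 (SE 0.07) for *Ctsl* and -0.47 (SE 0.08) for *Furin*. Secretory against basal cells gave 3 calls of 6, with *Ctsb* higher (0.85, SE 0.05) and *Furin* (-0.96, SE 0.08) and *Ctsl* (-0.48, SE 0.07) lower. Of all genes, 59.6% were called there, 27.8% higher and 31.8% lower. *Icam1* at 0.21 (95% interval -0.11 to 0.52) and *Tmprss2* at 0.00 (-0.26 to 0.27) did not pass, and *Cdhr3*, with 85 UMIs in secretory and 132 in basal cells, had -0.05 (-1.26 to 1.15).

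To ask whether the *Dnaaf5* genotype went with a different supply of these genes, *MIS/MIS* was compared with *WT/WT* over mice within each class. None of the 6 genes passed in multiciliated, secretory or basal cells. Of all genes tested, 0 of 14615 were called in basal cells (0%), 1 of 13610 in the secretory class (0.00735%) and 1 of 14206 in the multiciliated class (0.00704%). The called gene was *Wdfy1* in both, which is named because its count was 1 and is no host factor of this list. At an unadjusted p under 0.05 there were 334, 258 and 614 genes in that order, and 0, 1 and 0 of the 6. Of the other tests run, limma-trend called 0, 1 and 1 genes and limma voom with sample weights 1, 1 and 1, and neither called any of the 6.

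In multiciliated cells *Cdhr3* was 127, 86.7 and 119 CPM in *WT/WT* and 119, 184 and 139 CPM in *MIS/MIS* mice. The groups overlapped, with *MIS/MIS* mouse MT1306 highest and *WT/WT* mouse 2 lowest. The log2 fold change was 0.39 (SE 0.19, 95% interval -0.06 to 0.83, limma adjusted p = 0.896). Multiciliated3 made up 52.1%, 43.0% and 58.9% of multiciliated cells in *WT/WT* and 58.3%, 70.2% and 55.0% in *MIS/MIS* mice (exact permutation p = 0.3, two-sided). With Multiciliated1, Multiciliated2 and Multiciliated3 mixed alike in every mouse, and without Multiciliated4, the log2 fold change of *Cdhr3* was 0.16. Within Multiciliated3 it was 0.15 (SE 0.11). *Ctsl* had -0.30 (SE 0.15, 95% interval -0.64 to 0.04, limma adjusted p = 0.896), with 1006, 680 and 856 CPM in *WT/WT* and 667, 739 and 671 CPM in *MIS/MIS* mice. The other log2 fold changes were -0.36 (SE 0.26) for *Icam1*, 0.15 (SE 0.23) for *Furin*, 0.12 (SE 0.10) for *Tmprss2* and -0.09 (SE 0.07) for *Ctsb*. The median of the 6 was 0.01 and that of all genes 0.01. Beside these values, the summed level of 4 basal marker genes in multiciliated cells was 869 to 1153 CPM in *WT/WT* and 546 to 718 CPM in *MIS/MIS* mice, and that of the 4 multiciliated marker genes 2679 to 2762 and 2781 to 3333 CPM, both without overlap. Of all genes tested in multiciliated cells, 10.0% had no overlap either. The part of these marker genes in the differences was not tested.

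In secretory cells the log2 fold changes of *Icam1*, *Tmprss2*, *Furin*, *Ctsl* and *Ctsb* lay between -0.12 and 0.12. *Cdhr3* was the exception in size, at 0.136, 0.287 and 0.150 CPM in *WT/WT* and 0.294, 0.554 and 0.478 CPM in *MIS/MIS* mice. The groups did not overlap, but these values rest on 85 UMIs in 7731 cells. The log2 fold change was 1.01 (SE 0.42, 95% interval 0.02 to 2.01, limma adjusted p = 1.00). With the same mixture of secretory types in every mouse it was 0.25. That value was taken on log2(CPM + 1), which shrinks changes at levels below 1 CPM, so it cannot be set against 1.01. Within Secretory1 the means were 0.176 CPM in *WT/WT* and 0.471 CPM in *MIS/MIS* mice, and within Secretory2 0.206 and 0.355 CPM. The 4 multiciliated marker genes had summed levels in secretory cells of 15.5 to 19.8 CPM in *WT/WT* and 17.6 to 33.9 CPM in *MIS/MIS* mice, and their part in the *Cdhr3* value was not tested. In basal cells the log2 fold changes were 0.31 (SE 0.26) for *Icam1*, -0.29 (SE 0.87) for *Cdhr3*, -0.23 (SE 0.21) for *Furin*, -0.16 (SE 0.22) for *Ctsl*, -0.05 (SE 0.25) for *Tmprss2* and 0.00 (SE 0.13) for *Ctsb*. Mice of the 2 genotypes had CPM without overlap in 0 of 6 genes for the basal class (7.96% of all genes), 1 of 6 for the secretory class (5.50%) and 0 of 6 for the multiciliated class (10.0%).

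**Figure D4:**
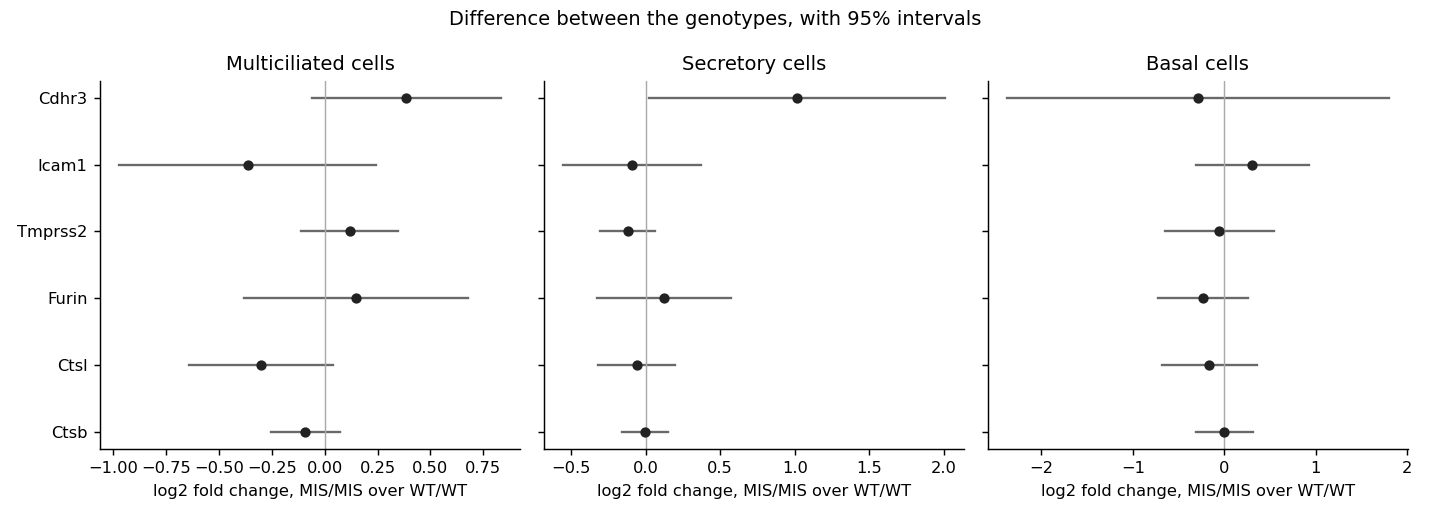
Log2 fold change of *MIS/MIS* over *WT/WT* (horizontal axes, ranges differ between panels) of the 6 genes in multiciliated, secretory and basal cells; points are limma voom estimates from 3 mice per genotype and bars are 95% intervals. The intervals include 0 in multiciliated and basal cells, and in secretory cells that of *Cdhr3* alone (0.02 to 2.01) does not.

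Within single cell types 9 had at least 20 cells in every mouse. None of the 6 genes passed where it was tested. *Cdhr3* fell under the count filter in Basal1, Basal2, Basal3, Basal6, Secretory1 and Secretory2 and was not tested there. The share of all genes called was 0% in Basal1 and in Basal6, 0.00896% in Basal2, 0.00847% in Basal3, 0.00874% in Multiciliated1, 0.00857% in Multiciliated2, 0.0229% in Multiciliated3, 0.00759% in Secretory1 and 0.00808% in Secretory2. The called genes were *Wdfy1*, *Sult1d1* and *Fank1* in Multiciliated3 and *Wdfy1* in the other types with a call, named for their small number. In Basal1 and Basal6, 598 and 467 genes had an unadjusted p under 0.05, and limma-trend called 0 there. *Ctsb* in Basal6 was 291, 280 and 293 CPM in *WT/WT* and 246, 256 and 209 CPM in *MIS/MIS* mice without overlap (log2 fold change -0.29, SE 0.10, limma adjusted p = 0.998). *Ctsl* in Multiciliated3 was 637, 600 and 707 CPM against 565, 597 and 516 CPM, also without overlap (-0.21, SE 0.09, limma adjusted p = 0.978). These were the 2 values of the members with an unadjusted p under 0.05 in single types. Among these types, *Tmprss2* in Basal1 and *Cdhr3* in Secretory1 also had no overlap. How many of all genes had no overlap within single types was not counted. In the basal, secretory and multiciliated classes that share was 7.96%, 5.50% and 10.0%, so a lack of overlap is no result about the members.

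Whether the genotype difference itself differed between classes was tested as an interaction, in which 0% of 15942 genes passed for each pair of classes with limma voom and with limma-trend. At an unadjusted p under 0.05 there were 703 genes for multiciliated against basal, 449 for multiciliated against secretory and 560 for secretory against basal cells. *Furin* was the member among them, with a difference of 0.36 (SE 0.15) for multiciliated against basal (limma adjusted p = 0.978) and 0.31 (SE 0.12) for secretory against basal cells (limma adjusted p = 1.00).

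Summed over all cells of a mouse, *Cdhr3* was 16.04, 12.0 and 20.4 CPM in *WT/WT* and 19.4, 42.2 and 48.9 CPM in *MIS/MIS* mice. MT1301 lay within the *WT/WT* range, and MT1306 and MT1383 above it. The means were 16.2 ± 4.21 and 36.9 ± 15.5 CPM (two-sided exact permutation p = 0.2, where 3 against 3 mice allow no p under 0.1). Multiciliated cells made up 11.7%, 12.0% and 16.2% of cells in *WT/WT* and 16.2%, 24.4% and 32.1% in *MIS/MIS* mice (exact permutation p = 0.2), in the same order of mice apart from *WT/WT* mice 1 and 2, which changed places. In a sum over all cells, more cells of a type and a higher level within the type cannot be told apart, and the part of each was not tested. The level within Multiciliated3 was 202 to 253 CPM in *WT/WT* and 215 to 257 CPM in *MIS/MIS* mice. Over all cells *Tmprss2* had means of 43.2 and 52.4 CPM (exact permutation p = 0.2), and *Ctsl* of 2040 and 1719 CPM (exact permutation p = 0.5).

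**Figure D5:**
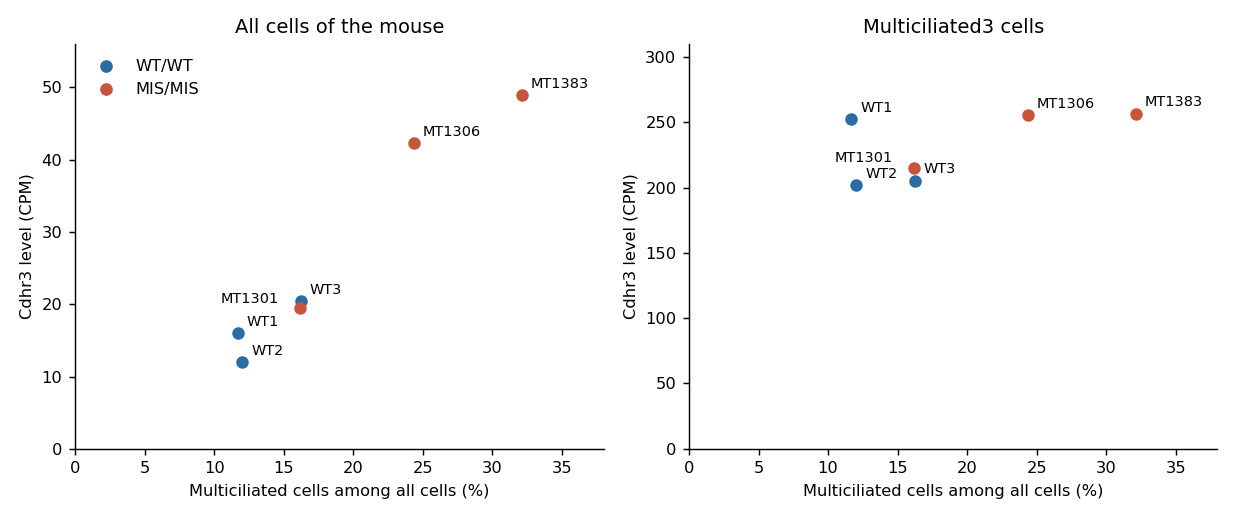
*Cdhr3* level in CPM (vertical axes, linear from 0) of each of the 6 mice against its percentage of multiciliated cells (horizontal axes), summed over all cells in one panel and within Multiciliated3 cells in the other, coloured by genotype. Over all cells the mice run from 12.0 to 48.9 CPM, and within Multiciliated3 cells from 202 to 257 CPM.

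The members were set beside 97 other genes of receptors, sialic acid synthesis, proteases, their inhibitors and restriction factors, of which 91 were measured and 84 tested between classes. Against basal cells, multiciliated cells had 25 of these higher and 43 lower (median log2 fold change -0.36). Against secretory cells they had 23 higher and 46 lower (-0.26, beside 0.04 over all genes). Secretory against basal cells had 32 higher and 31 lower (-0.02). Of all genes, the shares called higher and lower in these contrasts were 40.1% and 40.5%, 41.4% and 37.9%, and 27.8% and 31.8%, in that order. Between the genotypes 0 of 79 passed in basal, 0 of 74 in secretory and 0 of 73 in multiciliated cells, with 5, 3 and 6 at an unadjusted p under 0.05. By role, 6 of 16 serine proteases were called higher and 4 lower in multiciliated than in basal cells, as were 3 and 8 of 12 cathepsins. So were 2 and 7 of 10 protease inhibitors and 5 and 14 of 23 receptors, beside 40.1% and 40.5% of all genes. Counts for the genes of sialic acid synthesis, convertases and restriction factors are not given here.

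Among the abundant genes of that list, *St14*, the membrane serine protease matriptase, followed *Tmprss2* in that multiciliated cells were highest, at 84.7 ± 7.80 CPM against 53.6 ± 4.39 in secretory and 61.0 ± 6.89 in basal cells (n = 6). *Tmprss4* had 55.8 ± 3.80, 32.5 ± 2.87 and 39.1 ± 23.8 CPM in the same order and passed in neither contrast of multiciliated cells (limma adjusted p = 0.130 and 0.113). The convertases *Mbtps1* and *Pcsk7* had 22.7 and 13.9 CPM in multiciliated cells, both lower there than in secretory and in basal cells, as *Furin* was. *Ctsh*, another cysteine cathepsin, was lowest in basal cells at 210 ± 44.2 CPM, against 320 ± 10.8 in secretory and 352 ± 21.9 in multiciliated cells, the reverse of *Ctsl* in that respect. *Ctsd*, an aspartic protease, differed less, at 506, 435 and 499 CPM in basal, secretory and multiciliated cells. The inhibitor *Cstb*, which blocks cathepsins, was highest in basal cells at 1029 ± 104 CPM and lowest in multiciliated cells at 687 ± 63.4 CPM. *Spint2*, which inhibits surface serine proteases, had 567, 633 and 713 CPM in basal, secretory and multiciliated cells.

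*Bsg*, an immunoglobulin-family receptor, was highest in secretory cells at 2854 ± 285 CPM, against 1288 ± 162 in basal and 1020 ± 93.3 in multiciliated cells. *Ncl*, a nucleolar protein named as a receptor of respiratory syncytial virus, had 454, 278 and 334 CPM in basal, secretory and multiciliated cells. *St3gal5* and *Cmas*, enzymes of sialic acid metabolism, were highest in secretory cells, at 93.8 ± 8.04 and 112 ± 11.8 CPM. *Ifitm1*, which restricts viral fusion at membranes, was highest in the class that held most *Cdhr3* and *Tmprss2*, at 2752 ± 640 CPM in multiciliated, 1337 ± 286 in secretory and 487 ± 187 in basal cells. *Ifitm3* had 1096, 954 and 1240 CPM in that order.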

How the data were processed

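The authors ran droplet scRNA-Seq (10x 3′ libraries) on tracheal cultures of 6 mice, 3 per genotype, and deposited UMI counts by gene and cell together with the names of the cell clusters. Cell Ranger 7.1.0 and the mm10 build are named in the submitters' processing notes. Filtering and clustering were the authors', and no further doublet removal was done here. The table's field separator is mistyped and was handled on reading, and its unit was for that reason not entered as counts. All values were whole and the totals of all cells matched the deposited cell table. Columns outside the 6 mice numbered 0.

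Counts were summed by mouse and class. A negative binomial test had been planned, but limma 3.58.1 (voom) in R 4.3.3 took its place because of that record. Genes needed a count of 10 in a library of median size in 3 libraries and a total of 15. TMM factors used trims of 0.3 and 0.05, and Benjamini-Hochberg adjusted p-values a threshold of 0.05. The code was tested on simulated data. Other steps used Python 3.11.15 (numpy 2.4.6, scipy 1.17.1), with tables in pandas 2.3.3 and plots in matplotlib 3.10.9. Levels are CPM of summed counts, and cells were also thinned to 5000 UMIs, which left out 0 cells.

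The 6 genes, the list of 97 others and the markers were chosen with earlier results of these data known. The text names the 6, the 2 most abundant listed genes of each role, listed genes past the threshold between genotypes, and the 5 genes most like each of the 6, apart from some that are not reported here. Alternatives were other size factors, no filter, thinning, the stated cell filters of 2500 to 7500 genes and at most 25% mitochondrial counts (10136 *WT/WT* and 13080 *MIS/MIS* cells), equal mixtures of cell types, other pseudocounts, and leaving out each mouse. Equal mixtures used only types with at least 20 cells in every mouse, so Basal4, Basal5, Basal7, Basal8 and Multiciliated4 were left out of them. Gene positions are from GENCODE on GRCm38.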

Additional observations from a re-analysis of the deposited data

How the results depend on the processing

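None of the 280 values of the 6 genes between genotypes under the alternatives passed (lowest adjusted p = 0.530, limma), and 135 of 135 called values between classes kept their call and direction. The planned negative binomial fits were not run, and limma-trend and sample weights were added after seeing the data. Over all genes, 1 call in secretory cells became 0 when cells were thinned to 5000 UMIs and 0 to 0 without each mouse, and 0 calls in basal cells became 1 with equal mixtures of types and 1 with sample weights. Log2 fold changes between genotypes that missed the threshold changed sign as follows, and the cause was not tested. With sample weights, *Furin* in multiciliated cells was -0.01, *Ctsl* 0.01 in secretory and 0.05 in basal cells, *Icam1* -0.05 and *Tmprss2* 0.06 in basal cells. With equal mixtures, which for basal cells held only Basal1, Basal2, Basal3 and Basal6, *Icam1* was -0.01 and *Cdhr3* 0.29 in basal cells. The left-out basal types and the equal weights cannot be told apart in these values. Equal mixtures used log2(CPM + 1), which shrinks changes of a gene as low as *Cdhr3* in basal cells. With thinning, *Tmprss2* in basal cells was 0.01, and *Cdhr3* fell under the filter and had no value in secretory or basal cells. With limma-trend, *Tmprss2* in Basal6 was -0.01, and *Cdhr3* in secretory against basal cells was 0.04. Leaving out each mouse gave -0.16 to 0.29 for *Furin* in multiciliated cells, with -0.16 without *WT/WT* mouse 2. In secretory cells it gave -0.08 to 0.23 for *Furin*, -0.28 to 0.05 for *Icam1* and -0.14 to 0.04 for *Ctsl*. In basal cells it gave -1.27 to 0.50 for *Cdhr3*, with 0.50 without MT1306, -0.32 to 0.07 for *Ctsl* and -0.24 to 0.25 for *Tmprss2*, the highest of both without *WT/WT* mouse 1. *Cdhr3* in secretory against basal cells ran from -0.50 to 0.32. Values near 0 also crossed it over the alternatives, from -0.03 to 0.03 for *Ctsb* in secretory and -0.10 to 0.09 in basal cells, from -0.13 to 0.00 for *Ctsb* in multiciliated cells (above 0 with thinning alone), and from -0.07 to 0.10 for *Tmprss2* in secretory against basal cells. Shares of cells with a count depended on depth. Thinned to 5000 UMIs, thinned to 10000 UMIs and asking for at least 2 counts, they were 67.2%, 85.8% and 90.4% for *Cdhr3* in Multiciliated3, 42.9%, 61.3% and 59.8% for *Icam1* in Basal2, 51.8%, 75.2% and 81.8% for *Tmprss2* in Multiciliated3, 28.9%, 45.3% and 51.6% for *Furin* in Basal1, and 87.9%, 96.7% and 98.4% for *Ctsb* in Secretory2. No paired analysis was possible because the *MIS/MIS* animal numbers match no number in the sample titles.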

Other observations

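*Tmprss11e*, a serine protease gene of the same family as *Tmprss2* and a gene of the list of other host factors, is named here after its values were seen. It was at 8.17 ± 3.94 CPM in multiciliated and 4.99 ± 3.23 in basal cells but at 0.362 ± 0.147 in secretory cells (n = 6). Multiciliated against secretory cells gave a log2 fold change of 3.98 (SE 0.40, limma adjusted p = 4.06e-07), where *Tmprss2* gave 1.79.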
